A study of Homo sapiens with 16 samples.

Results

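The clustered protocadherins are 53 genes of the deposited table of 19468 genes, taken by symbol as every PCDHA, PCDHB or PCDHG gene. They comprise 15 alpha, 16 beta and 22 gamma members. RNA-seq was measured in MDA-MB-231, an established human line of triple-negative breast adenocarcinoma cells labelled WT, grown on polyacrylamide gels that carried type I collagen as a model extracellular matrix (ECM). Per the treatment protocol, the gels had a Young's modulus of 1 kPa (soft) or 308 kPa (stiff), although the column names of the deposited table read 3kpa for the stiff libraries, a difference that was not resolved. Soft-selected cells had been passaged for 75 days on soft gels and were measured on soft ECM, stiff-selected cells had been passaged for 75 days on stiff gels and were measured on stiff ECM, and ancestral cells were measured on each. Each of the 4 groups held 4 libraries. The labels do not say whether the libraries of a group came from separate cultures or separately selected populations, and the p-values then describe the spread among these libraries alone.

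Protocadherins of these clusters are single-pass transmembrane adhesion molecules of the cadherin superfamily. They form dimers within a membrane and bind the same isoform on a facing cell, and they are best known from neurons, where the isoforms a cell makes give its surface an identity used in self-avoidance of dendrites. The genes lie in tandem on chromosome 5 in the order alpha, beta, gamma. Each alpha and gamma member has its own promoter and a large variable first exon for the extracellular, transmembrane and proximal cytoplasmic parts, spliced to constant exons that its whole cluster shares and that encode the common cytoplasmic tail. Beta members are single-exon genes without a constant tail. The C-type members at the end of the alpha and gamma clusters (PCDHAC1, PCDHAC2, PCDHGC3, PCDHGC4 and PCDHGC5) are regulated apart from the alternate members. The insulator protein CTCF and cohesin bind most of these promoters, and DNA methylation of the promoters goes with silencing.

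Most of these promoters carry a conserved element around the letters CGCT, and the stretches below show how the 3 clusters differ in it. RefSeq (GRCh38.p14) held a window from 250 bases before to 50 after the gene start for 47 of the 53 members. PCDHA3, PCDHA13, PCDHB6, PCDHB11, PCDHGA12 and PCDHGC5 were not matched. Searched on both strands, CGCT stood in 46 of the 47 windows, PCDHA9 being the exception, and in 70.0% of the 35116 RefSeq promoter windows of the same length. The longer forms were picked after the sequences were seen, and each holds CGCT. They were read from the windows of PCDHA1, PCDHB2 and PCDHGC3, which therefore match by construction. ATGTCGCT stood in 9 of 13 alpha windows, in 0 of 14 beta and 0 of 20 gamma windows, and in 0.234% of all windows. GGTGGCGCTGCAG stood in 10 of 14 beta windows, in none of the alpha and gamma windows, and in 0.0427% of all. GNCGCTGTNG stood in 11 of 20 gamma windows, in 1 alpha and 1 beta window, and in 1.5% of all. A match of letters does not show that a factor was bound there. The stretches of 40 bases below lie on the plus strand, upstream of the RefSeq start, with CGCT in capitals. They show alpha members near 0 in every library, beta members of low and of high level, and gamma members.
PCDHA1, chr5:140786084-140786123: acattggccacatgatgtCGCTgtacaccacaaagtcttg
PCDHA8, chr5:140841128-140841167: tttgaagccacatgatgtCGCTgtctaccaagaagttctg
PCDHB2, chr5:141094542-141094581: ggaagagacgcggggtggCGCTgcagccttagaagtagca
PCDHB16, chr5:141182308-141182347: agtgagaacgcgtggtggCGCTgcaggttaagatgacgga
PCDHB13, chr5:141213863-141213902: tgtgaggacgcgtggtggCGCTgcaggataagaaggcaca
PCDHGB2, chr5:141359919-141359958: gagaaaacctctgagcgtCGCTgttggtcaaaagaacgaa
PCDHGC3, chr5:141475878-141475917: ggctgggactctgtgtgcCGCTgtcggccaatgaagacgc
The longer beta form, read from PCDHB2, a member of low level in ancestral cells, also stands in PCDHB13, the most abundant beta member. Only windows that hold the form of their cluster were printed, so these stretches cannot show whether the form goes with level.

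Values are FPKM, read counts scaled to the length of the gene and to the total of the library. Comparisons between libraries depend in part on this scaling. Scaled to an equal sum in every library (TPM), the ratio of summed beta levels in soft-selected to ancestral cells on soft ECM was 2.07, against 2.01. Read totals recovered from the FPKM ranged from 43475933 to 55473079 in the ancestral and from 34284827 to 44279078 in the selected libraries. The ancestral and the selected libraries carry different sequencing project names, so that project and selection cannot be told apart. The 25th percentile of FPKM over all genes was 0.0423 to 0.0469 in ancestral cells on stiff ECM and 0.0603 to 0.0696 in ancestral cells on soft ECM. It was 0.0578 to 0.0808 in stiff-selected and 0.0923 to 0.102 in soft-selected cells. Soft-selected cells were thus highest and ancestral cells on stiff ECM lowest, as in the means of the cluster sums below. The part of this percentile in the results was not tested. Of markers of the line, VIM was at 1939 FPKM or more in every library, ESR1 and PGR were at 0.0777 or less, and CDH1, the epithelial cadherin, was at 0.687 or less, whereas ERBB2 (36.3 to 43.1), EPCAM (7.04 to 14.1) and KRT19 (222 to 353), which had been listed as low, were not. In bulk RNA, a change in the number of cells that express a member cannot be told apart from a change in the RNA of each cell.

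Near-identical sequence limits what can be said of single members. The shared 3′ coding part is 459 bases (16.1% of the coding length) in the alpha cluster and 375 bases (13.4%) in the gamma cluster, while beta members share none. Summed reads of the gamma members were 7192 to 14778 per library. If all of these came from the variable first exons and reads fell evenly, 1111 to 2283 more would be expected from the shared part. Yet PCDHGA2 held only 7 to 76 reads. Reads from the shared exons were therefore not credited in full to every member. Of the 150-base windows in its first coding exon, 25% of PCDHB10 also occurred in another member or in a pseudogene of the clusters. The share was 22.4% for PCDHB13, 20.1% for PCDHA7 and 13.4% for PCDHGB4. The members that shared most windows with them were, in that order, PCDHB9, PCDHB8, PCDHA9 and PCDHGB5, and values within such pairs are uncertain.

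The 3 clusters differed in level. Summed over its members, the gamma cluster stood at 81.4 ± 4.1 FPKM (SD, n = 4) in the ancestral population on soft ECM, the beta cluster at 32.2 ± 3.23 and the alpha cluster at 0.105 ± 0.0525. On stiff ECM the ancestral sums were 57 ± 3.27, 23.7 ± 2.33 and 0.0846 ± 0.0194. Soft-selected cells had 124 ± 12.9, 64.8 ± 13.6 and 0.841 ± 0.235, and stiff-selected cells had 92 ± 13.9, 43 ± 4.86 and 0.429 ± 0.195. The ratio of the mean sums of soft-selected to ancestral cells on soft ECM was 8.02 for alpha, 2.01 for beta and 1.52 for gamma, and that of stiff-selected to ancestral cells on stiff ECM was 5.07, 1.81 and 1.61. In both of these comparisons the 4 selected libraries lay above all 4 ancestral libraries for every cluster. The alpha sums rested on 8 to 26 reads per library in the ancestral population on soft ECM and on 60 to 136 in soft-selected cells, where the beta sums rested on 3022 to 4782 and on 4737 to 6451 reads. Soft-selected replicate 2 stood apart in the beta cluster, with a sum of 44.7 FPKM where the other soft-selected libraries reached up to 73.2.

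**Figure D1:**
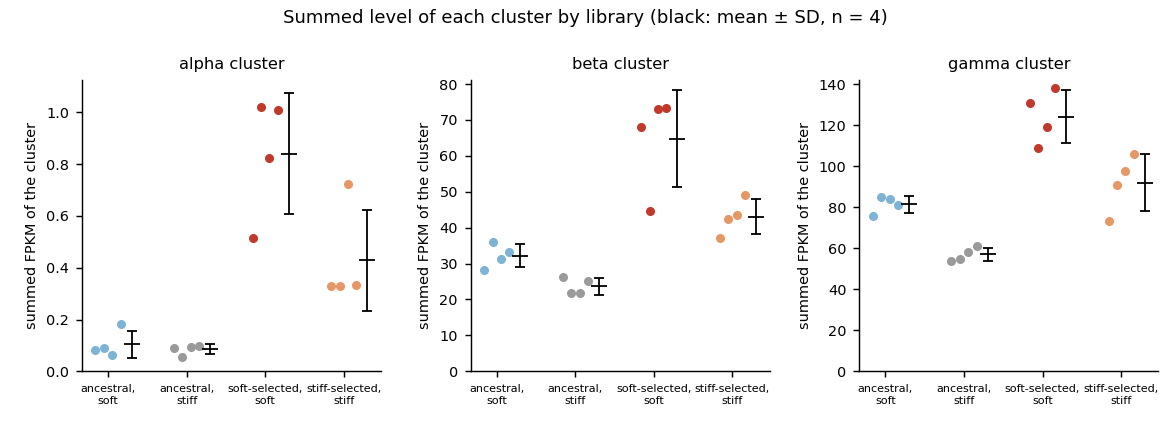
Summed FPKM of the alpha, beta and gamma members (vertical axis, linear, from 0) in each library of the 4 groups, with the mean and SD in black (n = 4). By its mean, each cluster was lowest in ancestral cells on stiff ECM, at 0.0846, 23.7 and 57 FPKM, and highest in soft-selected cells, at 0.841, 64.8 and 124 FPKM. Libraries of the ancestral groups overlapped in the alpha cluster, and those of the selected groups in the alpha and beta clusters.

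Within the beta and gamma clusters, few members gave much of the summed level. PCDHGB2 gave 21.3%, 21.6%, 19.6% and 19.3% of the gamma sum in the ancestral population on soft and then on stiff ECM and in soft-selected and then stiff-selected cells, and PCDHGB1 gave 12.7%, 14.1%, 12.7% and 11.8%. PCDHB13 gave 26.6%, 29.7%, 24% and 28.8% of the beta sum in the same order of groups. PCDHB11 and PCDHB14 came next among beta members, with 21.5% and 16.6% in ancestral cells on soft ECM. The order of mean FPKM over the 22 gamma members had a Spearman rho of 0.98 between ancestral and soft-selected cells on soft ECM and 0.99 between ancestral and stiff-selected cells on stiff ECM. Over the 16 beta members it was 0.87 and 0.88. These are descriptions over members of the same libraries, with no test.

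**Figure D2:**
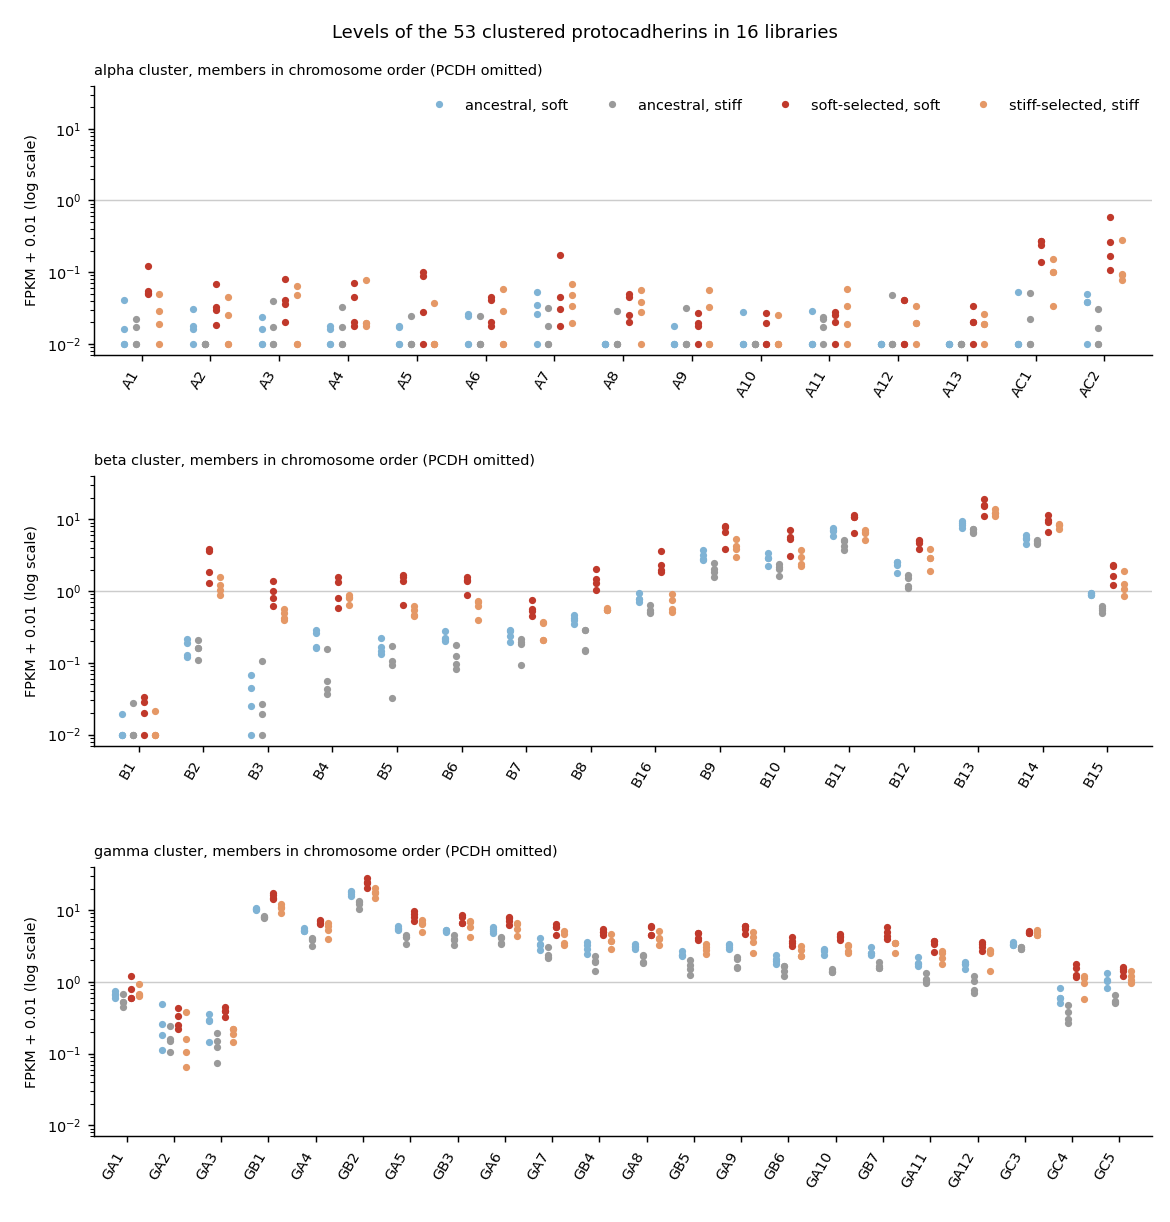
FPKM plus 0.01 on a log axis for each of the 53 members in chromosome order, with 1 point per library coloured by group and the grey line at an FPKM of 1. Alpha members lie below 1 FPKM in all 16 libraries, means over the 16 libraries are at most 1.03 FPKM from PCDHB1 to PCDHB8 and between 2.81 and 10.9 FPKM from PCDHB9 to PCDHB14, and the highest gamma level is that of PCDHGB2, with a mean over the 16 libraries of 17.9 FPKM.

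Soft-selected cells held more RNA of nearly all detected beta and gamma members than ancestral cells on soft ECM, the comparison that addresses what changed in cells that had grown on soft ECM for 75 days. The test was limma on log2(FPKM + 1) for the 12604 genes that reached 1 FPKM in 4 or more libraries, called at an adjusted p under 0.01. Of the 53 members, 29 entered the test, 10 of them beta and 19 gamma, and 21 of the 29 were at 1 FPKM or more in all 16 libraries. The other 24 (15 alpha, 6 beta and 3 gamma) did not pass the filter. Of the 29 tested members, 26 were called higher and 0 lower, while 21.5% of all genes tested were called higher and 15.4% lower. Among the 5635 tested genes with a mean FPKM within the members' range, a background added after seeing the data, 24.3% were called higher. The median log2 fold change was 0.59 for members and 0.04 for all genes. A member could pass the filter through the selected libraries alone, where it was high, as did PCDHB8 and PCDHB16 (soft-selected libraries) and PCDHB2, PCDHB15 and PCDHGC4 (libraries of both selected groups), so that counts over all 53 were also made without the filter. There limma called 30 of 53 higher and 0 lower (17.0% and 10.8% of 17735 genes), and voom on the recovered reads called 35 higher and 0 lower (17.4% and 11.2%). The 4 soft-selected libraries lay above all 4 ancestral ones for 36 of 53 members, against 22.6% of genes.

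Of the beta members, 9 of 10 tested and 14 of 16 without the filter were called higher by limma. PCDHB2, which passed the filter through selected libraries alone, was at 0.112, 0.18, 0.202 and 0.12 FPKM in ancestral cells on soft ECM and at 1.84, 1.3, 3.85 and 3.59 FPKM in soft-selected cells. The groups did not overlap, and soft-selected replicates 3 and 4 were the high ones. The ratio of the means was 17.2, and the log2 fold change on the log2(FPKM + 1) scale, which understates the change of low genes, was 1.59 ± 0.18 (SE), with an adjusted p of 1.4e-05 by limma without the filter. PCDHB16 went from 0.702 to 0.937 FPKM in ancestral to 1.84 to 3.59 FPKM in soft-selected cells, and PCDHB8 from 0.344 to 0.462 FPKM to 1.04 to 2.05 FPKM. These 2 passed the filter through the soft-selected libraries alone, and without the filter limma gave adjusted p = 4.6e-05 for PCDHB16 and 8.7e-06 for PCDHB8, at log2 fold changes of 0.91 and 0.8. The highest library of PCDHB8 was soft-selected replicate 2, the lowest of its group in the beta sum. PCDHB13 was at 8.24, 9.42, 7.55 and 8.93 FPKM in ancestral and at 15.5, 11.2, 15.9 and 19.2 FPKM in soft-selected cells. All 4 soft-selected values were above the ancestral ones, with a log2 difference of 0.77 ± 0.12 (limma, adjusted p = 3.4e-05).

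The beta members that lie first in the cluster were near or below the filter in ancestral cells. PCDHB3 was at 0, 0.0151, 0.0577 and 0.0344 FPKM in ancestral cells on soft ECM, which is 0 to 6 reads, and at 0.983, 0.605, 1.39 and 0.787 FPKM in soft-selected cells, which is 64 to 114 reads. It did not enter the test, and voom without a filter gave a log2 difference of 5.37 ± 0.68 (voom, adjusted p = 8.3e-06). PCDHB5 and PCDHB6 each had a mean of 1.31 FPKM in soft-selected and of 0.157 and 0.219 FPKM in ancestral cells, with voom log2 fold changes of 2.93 ± 0.43 and 2.51 ± 0.28. Over the 7 members PCDHB2 to PCDHB8, the ratio of group means ran from 2.33 to 35.1, from ancestral means of 0.0268 to 0.402 FPKM. Over the 7 members PCDHB9 to PCDHB15, which follow PCDHB16 on the chromosome, it ran from 1.43 to 2.13, from ancestral means of 0.904 to 8.54 FPKM. On stiff ECM these ratios ran from 1.72 to 14.9 and from 1.4 to 2.29, so the ranges overlapped. PCDHB16, which lies between these sets, was left out of both, with a ratio of 3.07 on soft and 1.25 on stiff ECM. The split at PCDHB9 was chosen after the values were seen. PCDHB1 held at most 2 reads in any library. PCDHB11 was the only tested beta member not called, at 6.92 ± 0.74 FPKM in ancestral and 9.92 ± 2.33 FPKM in soft-selected cells (limma, adjusted p = 0.0145), and soft-selected replicate 2, at 6.48 FPKM, lay within the ancestral range.

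Of the gamma members, 17 of 19 tested were called higher, with log2 fold changes between 0.25 and 0.67, and 15 of 22 without the filter. PCDHGB2, the most abundant, was at 15.9, 18.5, 16.8 and 18.1 FPKM in ancestral and at 24.1, 20.4, 24.5 and 28.2 FPKM in soft-selected cells. The groups did not overlap, and the log2 fold change was 0.46 ± 0.10 (limma, adjusted p = 0.00106). PCDHGB1 had the smallest p of the gamma members, with 10.4 ± 0.307 FPKM in ancestral and 15.7 ± 1.52 FPKM in soft-selected cells, a log2 difference of 0.55 ± 0.08 (limma, adjusted p = 1.8e-05). On the log2(FPKM + 1) scale the largest gamma change was that of PCDHGB7, from 2.61 ± 0.318 to 4.76 ± 0.771 FPKM, whereas by the ratio of means it was that of PCDHGC4, 2.32 against 1.82. All 7 gamma B members and 8 of 9 tested gamma A members were called higher. PCDHGA4, at 5.32 ± 0.263 and 6.85 ± 0.441 FPKM, was the gamma A member not called (limma, adjusted p = 0.0197), although its libraries did not overlap. PCDHGA1, PCDHGA2 and PCDHGA3, the first gamma members on the chromosome, stayed below the filter at means of 0.252 to 0.665 FPKM in ancestral and 0.299 to 0.793 FPKM in soft-selected cells.

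C-type members gave a mixed picture. PCDHGC3, the C-type member with the highest level, was at 3.6, 3.28, 3.41 and 3.3 FPKM in ancestral and at 4.99, 4.8, 4.82 and 5.1 FPKM in soft-selected cells. The groups were far apart relative to their spread, and the log2 fold change was 0.43 ± 0.07 (limma, adjusted p = 6.5e-05). PCDHGC4 went from 0.618 ± 0.134 to 1.43 ± 0.285 FPKM, with 0.58 ± 0.12 (limma without the filter, adjusted p = 5.4e-04). PCDHGC5, at 1.05 ± 0.219 and 1.44 ± 0.159 FPKM, had overlapping libraries and was not called (limma, adjusted p = 0.0377). PCDHAC1 was at 0, 0, 0 and 0.0423 FPKM in ancestral and at 0.13, 0.263, 0.26 and 0.228 FPKM in soft-selected cells, on 15 to 34 reads per library. PCDHAC2 was at 0 to 0.0396 FPKM in ancestral and at 0.0974, 0.573, 0.253 and 0.158 FPKM in soft-selected cells, with replicate 2 the highest. These 2 gave the largest shares of the alpha sum in soft-selected cells, 26.3% and 30.4%. Without the filter, limma called PCDHAC1 of the 15 alpha members, and voom called PCDHA1, PCDHA8, PCDHAC1 and PCDHAC2. The 13 alternate alpha members, PCDHA1 to PCDHA13, reached at most 0.164 FPKM, in PCDHA7, and at most 16 reads in a library.

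Stiff-selected cells also held more of these RNAs than ancestral cells on stiff ECM, a comparison that shares no library with the one on soft ECM. Both comparisons, however, set the same sequencing projects against each other and used a common estimate of the spread. Of the 29 tested members, 25 were called higher and 0 lower, against 18.4% of all genes tested higher and 10.8% lower, and 22.9% higher among genes in the members' FPKM range. The median log2 fold change was 0.54, beside 0.05 for all genes. Without the filter, limma called 30 of 53 higher and 0 lower (13.7% and 7.00% of genes), and voom called 31 higher and 0 lower (14.6% and 7.48%). The libraries did not overlap in 30 of 53 members, against 19.7% of genes. All 19 tested gamma members were called higher, at log2 fold changes of 0.38 to 0.79, and 6 of 10 tested beta members, at 0.12 to 0.9. Without the filter these were 19 of 22 gamma and 11 of 16 beta members. The number of members called and the medians are a description, since no test compared the clusters with each other.

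Of the tested beta members, PCDHB2 again had the largest change on the log2(FPKM + 1) scale, while by the ratio of means the untested PCDHB3 and PCDHB4 (14.9 and 12.5) stood above it (7.76). PCDHB2 was at 0.15, 0.196, 0.1 and 0.152 FPKM in ancestral cells on stiff ECM and at 0.887, 1.02, 1.55 and 1.2 FPKM in stiff-selected cells, without overlap, and the log2 fold change was 0.9 ± 0.18 (limma without the filter, adjusted p = 0.00178). PCDHB3 went from 0 to 0.0976 FPKM to 0.389 to 0.553 FPKM, with a voom log2 fold change of 4.7 ± 0.72 (voom, adjusted p = 8.8e-05). PCDHB16 was at 0.637, 0.543, 0.506 and 0.487 FPKM in ancestral and at 0.505, 0.908, 0.555 and 0.752 FPKM in stiff-selected cells. These groups overlapped, and the log2 fold change was 0.12 ± 0.13 (limma, adjusted p = 0.479). Of the gamma members, PCDHGA10 had the smallest p, with 1.42 ± 0.0567 FPKM in ancestral and 2.91 ± 0.38 FPKM in stiff-selected cells, a log2 difference of 0.69 ± 0.09 (limma, adjusted p = 8.6e-06). On the log2(FPKM + 1) scale PCDHGA12 had the largest gamma change at 0.79 ± 0.13, and PCDHGB1 the smallest at 0.38 ± 0.08. PCDHGC3 went from 2.95 ± 0.102 to 4.76 ± 0.38 FPKM, and PCDHGC5, which was not called on soft ECM, from 0.546 ± 0.0679 to 1.16 ± 0.189 FPKM (limma, adjusted p = 8.4e-04). PCDHAC2 was at 0 to 0.021 FPKM in ancestral and at 0.0799, 0.068, 0.274 and 0.0853 FPKM in stiff-selected cells, and was the 1 alpha member that voom called without the filter (voom, adjusted p = 0.00276), while limma without the filter did not call it (adjusted p = 0.175). Stiff-selected replicate 1 was the lowest of its group in 18 of 19 tested gamma members.

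**Figure D3:**
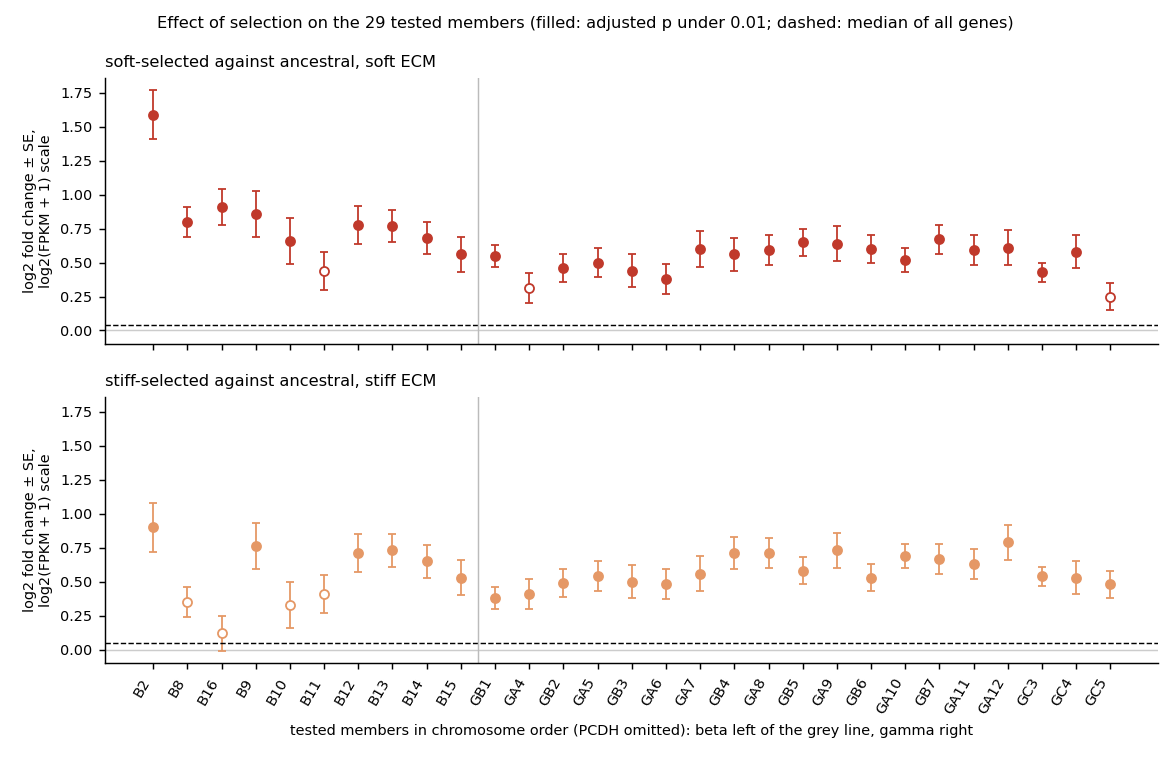
Log2 fold change ± SE on the log2(FPKM + 1) scale (vertical axis) of the 29 tested members in chromosome order, for selection on soft ECM above and on stiff ECM below. Filled points passed an adjusted p under 0.01, and the dashed line is the median of all genes tested, 0.04 above and 0.05 below. All points lie above the dashed line, and PCDHB2 is the highest in each panel, at 1.59 and 0.9.

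Whether selection acted by a different amount on each ECM was tested directly. With limma, 0 of the 29 members and 0 of 12604 genes passed an adjusted p under 0.01, and 1627 genes had an unadjusted p under 0.05. Without the filter, limma and voom also called 0 of 53 members, with 0.00564% of genes lower by limma and 0% by voom. Of the tested members, PCDHB16 had the largest difference, 0.79 ± 0.18 on the log2 scale (limma, adjusted p = 0.0814). PCDHB2 followed with 0.69 ± 0.25 (limma, adjusted p = 0.253) and PCDHB8 with 0.45 ± 0.15 (limma, adjusted p = 0.225). In all 3 the estimated change was greater on soft ECM, and none was called. All 3 had passed the filter through selected libraries alone, where they were high. Without the filter, limma gave adjusted p = 0.103, 0.32 and 0.195 in that order. For the 19 gamma members the difference lay between -0.22 and 0.17, with a median of -0.06 (PCDHGC5 the lowest), and for the 10 beta members between 0.02 and 0.79, with a median of 0.08. Across the 29 members, the log2 fold changes on soft and on stiff ECM had a Spearman rho of 0.39, and across the 19 gamma members of 0.69, given as a description.

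Soft-selected cells, compared with stiff-selected cells each on their own ECM, were higher in fewer members. Of the 29 tested, 6 were called higher and 0 lower, where 3.85% of all genes tested were called higher and 2.59% lower, and 4.74% higher in the members' FPKM range. The median log2 fold change was 0.38, beside 0.02 for all genes. Without the filter, limma called 9 of 53 higher and 0 lower (2.35% and 1.44% of genes), voom called 8 higher and 0 lower (2.52% and 1.46%), and the libraries did not overlap in 13 of 53 (7.96%). The called members were PCDHB8 and PCDHB16 of the beta cluster and PCDHGB1, PCDHGB2, PCDHGB5 and PCDHGA10 of the gamma cluster. PCDHB16 had the largest log2 fold change of the tested members, with 1.84 to 3.59 FPKM in soft-selected and 0.505 to 0.908 FPKM in stiff-selected cells, a log2 difference of 1.01 ± 0.13 (limma without the filter, adjusted p = 5.5e-04). PCDHB8 was at 1.47 ± 0.425 and 0.541 ± 0.021 FPKM, with 0.66 ± 0.11 (limma without the filter, adjusted p = 7.7e-04). Both had passed the filter through the soft-selected libraries alone, the group where they were high. PCDHGB1 was at 15.7 ± 1.52 and 10.8 ± 1.18 FPKM, with 0.51 ± 0.08 (limma, adjusted p = 5.4e-04). PCDHGC3, by contrast, was at 4.92 ± 0.144 and 4.76 ± 0.38 FPKM, with 0.04 ± 0.07 (limma, adjusted p = 0.701). The count of 6 moved with single libraries, to 11 without soft-selected replicate 2, to 1 without soft-selected replicate 1, to 2 without soft-selected replicate 3 or 4, and to 3 without stiff-selected replicate 1 or 2.

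Ancestral cells on soft ECM, compared with the same population on stiff ECM, had higher summed levels of the beta and gamma clusters, by ratios of 1.36 and 1.43 without overlap of the libraries, and more of the gamma members were called. Of the 29 tested members, 10 were called higher and 0 lower, where 7.54% of all genes tested were called higher and 3.87% lower, and 9.10% higher in the members' FPKM range. The median log2 fold change was 0.4, beside 0.03 for all genes. All 10 called members were gamma members, of 19 tested, while 0 of 10 beta members passed, although the libraries did not overlap in 9 of 16 beta and 18 of 22 gamma members. No test compared the clusters, and without the filter the median voom log2 fold change was 0.63 for beta and 0.58 for gamma members. Without the filter, limma called 4 of 53 higher and 0 lower (3.92% and 2.20% of genes), voom called 11 higher and 0 lower (6.06% and 2.85%), and the libraries did not overlap in 27 of 53 (15.8%). PCDHGA10 had the largest log2 fold change of the tested members, on the log2(FPKM + 1) scale, with 2.38, 2.71, 2.83 and 2.76 FPKM on soft and 1.38, 1.5, 1.42 and 1.38 FPKM on stiff ECM. The groups were well apart, with a log2 difference of 0.6 ± 0.09 (limma, adjusted p = 3.6e-04). PCDHGB2 was at 17.3 ± 1.22 and 12.3 ± 1.29 FPKM, with 0.47 ± 0.10 (limma, adjusted p = 0.00334). PCDHGC5 was the called C-type member, at 1.05 ± 0.219 and 0.546 ± 0.0679 FPKM (limma, adjusted p = 0.00718). On the same scale, the largest change of the tested beta members was that of PCDHB11, 0.51 ± 0.14 (limma, adjusted p = 0.0135), whose libraries did not overlap, and the smallest that of PCDHB2, 0.00 ± 0.18 (limma, adjusted p = 0.988), at means of 0.154 and 0.15 FPKM. The count of 10 fell to between 1 and 7 when single libraries were left out, being 1 without ancestral soft replicate 2 or 4 or ancestral stiff replicate 2, 2 without ancestral soft replicate 3 or ancestral stiff replicate 1, 3 without ancestral stiff replicate 3 and 4 without ancestral soft replicate 1.

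**Figure D4:**
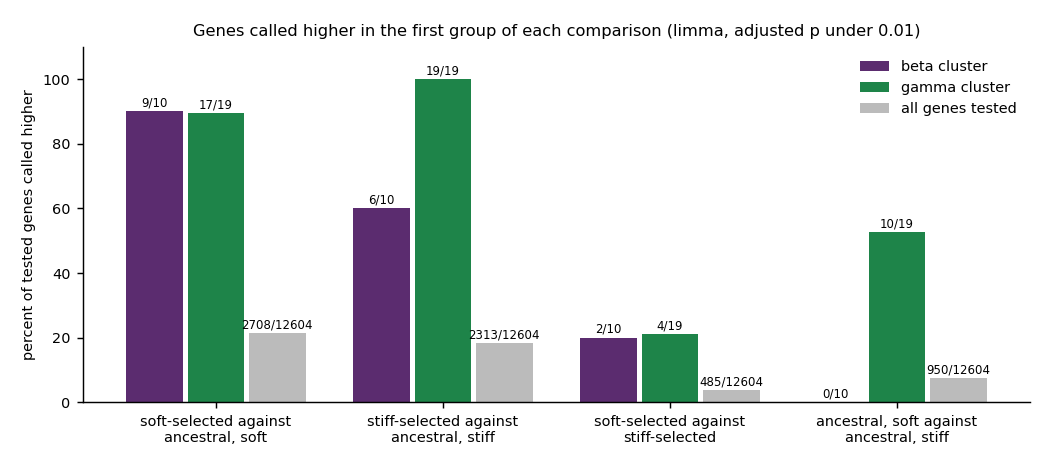
Percent of tested genes called higher in the first group of each of the 4 comparisons (limma, adjusted p under 0.01), for beta members, gamma members and all genes tested, with counts above the bars. Gamma members were called in 17, 19, 4 and 10 of 19 cases and beta members in 9, 6, 2 and 0 of 10.

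**Figure D5:**
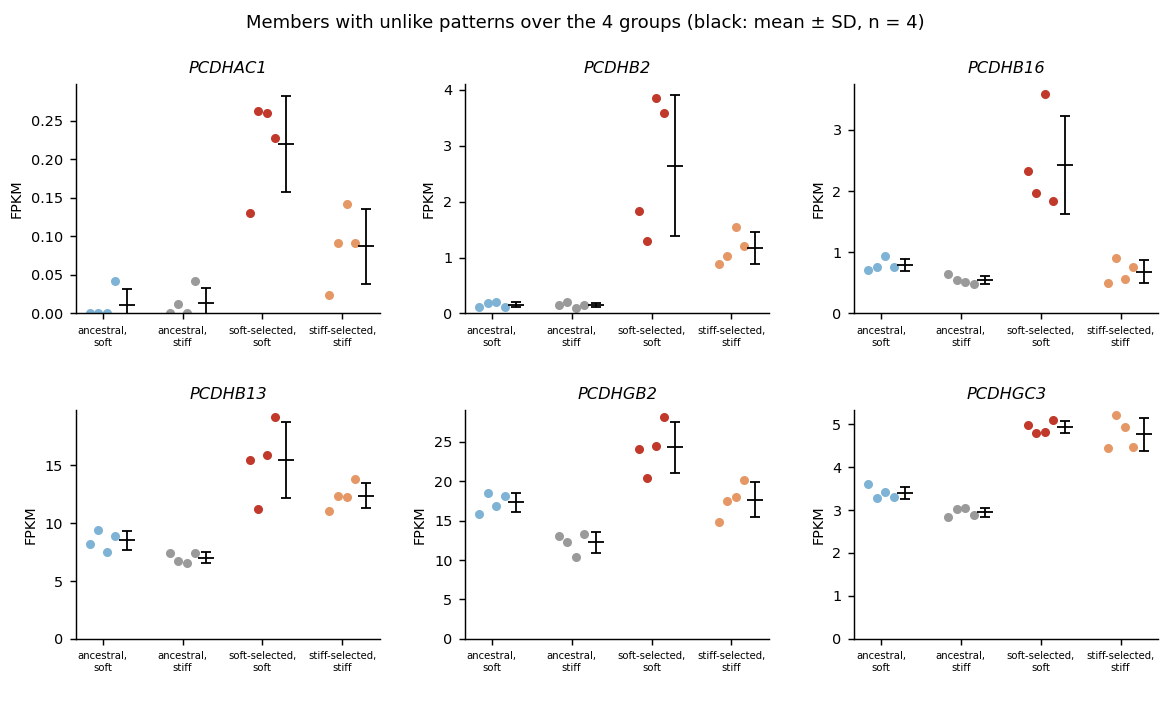
FPKM (vertical axis, linear, from 0) of PCDHAC1, PCDHB2, PCDHB16, PCDHB13, PCDHGB2 and PCDHGC3 in each library of the 4 groups, with the mean and SD in black (n = 4). The soft-selected libraries of PCDHB16, at 2.43 ± 0.803 FPKM, lie above those of all other groups, PCDHGC3 is at 4.92 ± 0.144 and 4.76 ± 0.38 FPKM in soft-selected and stiff-selected cells, and PCDHGB2 is at 17.3 ± 1.22 and 12.3 ± 1.29 FPKM in ancestral cells on soft and stiff ECM.

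Of 22 neighbours (the 10 genes on each side and those between the clusters, by order in RefSeq), 20 were tested, and 5 were higher and 3 lower in soft-selected than in ancestral cells on soft ECM, with a median log2 fold change of -0.01, where 21.5% of all genes tested were higher and 15.4% lower. On stiff ECM 4 were higher and 2 lower, with a median of 0.02, where 18.4% of all genes were higher and 10.8% lower. DIAPH1, a formin that nucleates actin, and ARAP3 lie after the gamma cluster and were higher in both, and CD14, before the alpha cluster, was lower in both. Of 12 non-clustered protocadherins only PCDH1 and PCDH18 were tested, and PCDH1, which lies after the gamma cluster, was lower in soft-selected than in ancestral cells on soft ECM, at 17.8 ± 4.25 and 29.2 ± 1.07 FPKM (limma, adjusted p = 2.1e-04), and was not called on stiff ECM, at 16.8 ± 2.43 and 18.9 ± 2.68 FPKM (limma, adjusted p = 0.312). Without the filter, voom called 3 of the 12 higher and 1 lower on soft ECM, where 17.4% and 11.2% of genes were. On stiff ECM it called 2 higher and 0 lower, where 14.6% and 7.48% of genes were. Below the filter, PCDH15 was at 0.1 to 0.715 FPKM in soft-selected and at 0 to 0.0121 FPKM in ancestral cells. On stiff ECM its means were 0.161 and 0.00423 FPKM. PCDH10 means were 0.471 and 0.149 FPKM on soft and 0.347 and 0.0665 FPKM on stiff ECM. PCDH9 means were 0.35 and 0.0691 FPKM on soft ECM, and it was not called on stiff ECM (voom, adjusted p = 0.0112).

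Of 28 regulators of chromatin linked to these clusters, all tested, 7 were called higher and 2 lower in soft-selected than in ancestral cells on soft ECM, with a median log2 fold change of 0.14, and 4 higher and 4 lower on stiff ECM, with a median of 0.04. The shares over all genes tested were 21.5% higher and 15.4% lower on soft ECM and 18.4% and 10.8% on stiff ECM. CTCF, which binds the promoters, was at 46.4 ± 2.01 FPKM in soft-selected and 36.2 ± 0.563 FPKM in ancestral cells, a log2 difference of 0.35 ± 0.05 (limma, adjusted p = 1.0e-05), and on stiff ECM it was at 41.2 ± 1.51 and 37 ± 1.04 FPKM (limma, adjusted p = 0.0141). The cohesin subunit STAG2 was lower in both, at 10.9 ± 2.38 against 29.2 ± 1.12 FPKM on soft and 10.3 ± 2.96 against 30.6 ± 3.31 FPKM on stiff ECM, with log2 fold changes of -1.36 ± 0.15 and -1.52 ± 0.15. STAG1, the paralog of STAG2, was called higher on soft ECM, with 0.33 ± 0.07 (limma, adjusted p = 9.9e-04), and not on stiff ECM, with 0.19 ± 0.07 (limma, adjusted p = 0.0345). The cohesin subunit SMC1A fell, with log2 fold changes of -0.43 ± 0.07 and -0.59 ± 0.07. DNMT1, the maintenance DNA methyltransferase, was higher in selected cells in both comparisons, at 0.24 ± 0.05 and 0.21 ± 0.05 on the log2 scale. In ancestral cells it was lower on soft than on stiff ECM, with -0.24 ± 0.05. The part of these regulators in the members' levels was not tested.

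Of 28 genes for cytoplasmic and membrane partners, 27 were tested, with 8 higher and 8 lower in soft-selected than in ancestral cells on soft ECM and 6 higher and 6 lower on stiff ECM, beside 21.5% and 15.4% of all genes tested on soft and 18.4% and 10.8% on stiff ECM. NLGN1, a synaptic adhesion molecule that binds gamma protocadherins, was higher in both, at 2.73 ± 0.643 against 0.857 ± 0.0701 FPKM on soft ECM. On stiff ECM it was at 1.59 ± 0.222 against 0.9 ± 0.0822 FPKM. Its ancestral means lay below 1 FPKM, so it passed the filter through the selected libraries, where it was high. Without the filter, limma gave adjusted p = 6.3e-06 on soft and 0.00469 on stiff ECM. ADAM10, the sheddase that cleaves protocadherins, and MARCKS, an actin-binding substrate of protein kinase C, were lower in both. PTK2, the focal adhesion kinase, which the alpha and gamma tails bind, was not called in either (limma, adjusted p = 0.0109 and 0.0187). Its selected libraries lay above the ancestral ones in both. PTK2 was higher on soft than on stiff ECM in selected and in ancestral cells, by 0.24 ± 0.05 and 0.23 ± 0.05 on the log2 scale. PTK2B, of the same list, was called lower in both comparisons, with log2 fold changes of -0.54 ± 0.08 on soft and -0.47 ± 0.08 on stiff ECM. Of 15 neuronal genes, TUBB3 and SYT1 entered the test. TUBB3 was higher in both comparisons, with log2 fold changes of 0.68 ± 0.08 and 0.56 ± 0.08. SYT1, a synaptic vesicle protein, was not called, at 1.52 and 0.799 FPKM on soft ECM (limma, adjusted p = 0.0266) and 1.38 and 1.08 FPKM on stiff ECM (limma, adjusted p = 0.419). Below the filter, the RNA-binding protein gene ELAVL3, named after its values were seen, was at 0.324 and 0.0865 FPKM on soft ECM (voom, adjusted p = 0.00626) and 0.162 and 0.0392 FPKM on stiff ECM (voom, adjusted p = 0.00756), on 18 reads or fewer per library. STMN2, NEFL and DCX, which mark neurons, were listed at 0 FPKM in all 16 libraries.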

How the data were processed

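The authors deposited 1 table of FPKM for 16 libraries. Per the labels, RNA was ribodepleted, and STAR and hg19 are named, with no versions, in the notes of the submitters. Which tool and annotation counted the reads is not given in the sources used here. 0 sample columns were left unused. Whole reads were recovered from the FPKM of 17735 genes, at a tolerance of 0.001 reads, which gave the totals, and 84.6% of recovered lengths were multiples of 3 (coding lengths).

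Values of log2(FPKM + 1) were fitted with limma 3.58.1 (R 4.3.3, trended prior) over genes that reached 1 FPKM in 4 or more libraries, with the 4 group means in 1 model, with Benjamini-Hochberg adjustment over all genes tested and calls under 0.01. Without the filter, limma on log2(FPKM + 1) and voom on recovered reads were both run, and the method is named beside each such value. The deposited table holds no depth of its own. Tested on simulated data for soft-selected against ancestral cells on soft ECM, the fit recovered 98.5% of 3-fold, 98.6% of 2-fold and 79% of 1.5-fold changed genes. The simulated spread was taken from the ancestral libraries on soft ECM alone, and no project effect was simulated. The real soft-selected libraries mostly differed more from each other than these did, so the rates may be too high for the real data. Other steps used Python with pandas, scipy and matplotlib.

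Members and lists were chosen with earlier results of these data known. A naming rule set which genes could be named, and not all of them are printed. In each cluster it took the 5 tested members with the highest mean FPKM. Per comparison it took the 4 called members with the smallest p and those with the largest and smallest change. All C-type members and up to 4 called genes per other list and comparison were included. PCDHB3, PCDHB5, PCDHB6, PCDHA1, PCDHA7, PCDHA8, PCDHB4, PCDHB15, PCDHGA4, the first gamma members, STAG1, PTK2B, SYT1, ELAVL3, PCDH9, PCDH10 and PCDH15 were named after their values were seen. The alternatives were another pseudocount, filter, scaling, threshold, model and set of libraries, and a replicate block. Promoter windows and coding exons came from RefSeq (GRCh38.p14) and GENCODE v44, builds other than that of the files, and were used for sequence and gene order only.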

Additional observations from a re-analysis of the deposited data

Results flagged for a closer look

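The members taken by the naming rule, and the summed FPKM of each cluster, were searched in each group of 4 libraries. A library far from the other 3 was flagged, which chance gives in about 1 in 20 groups. PCDHAC1 was at 0.0423 FPKM in ancestral soft replicate 4 and at 0 in the other 3 libraries of that group. PCDHAC2 was at 0.274 FPKM in stiff-selected replicate 3 and at 0.068 to 0.0853 in the others. The alpha sum was at 0.722 FPKM in the same library and at 0.329 to 0.334 in the others. PCDHGB7 was at 2.49 FPKM in stiff-selected replicate 1 against 3.46 to 3.51, and PCDHGA12 at 1.43 FPKM in that library against 2.54 to 2.75. These are 5 of the 112 groups looked at.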

How the results depend on the processing

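For selection on soft and on stiff ECM, the counts of 26 and 25 members called higher stayed within 1.5 times of these values under every alternative run, and ranged from 21 to 25 and from 22 to 25 when each library was left out in turn. No called value of a member changed sign under any alternative run. The other comparisons moved more. Between soft-selected and stiff-selected cells, the count of 6 was 1 when only the groups compared were fitted and 16 at an adjusted p under 0.05, and ranged from 1 to 11 without a library. Between ancestral cells on soft and stiff ECM, the count of 10 was 4 with no filter, 2 after quantile normalization, 16 when only the groups compared were fitted and 18 at an adjusted p under 0.05, and ranged from 1 to 7 without a library. The cause was not tested. The counts of members called lower, and those for the contrast of both selection effects, were 0 under each alternative run. The labels number the libraries of each group, but the 16 correlations of same-numbered libraries ran from -0.14 to 0.31, so the numbers were not taken to pair them. With the replicate number as a block, the counts were 26, 25, 6 and 8, and 0 for that contrast. The alpha cluster held 8 to 136 reads per library in all, and its single members could be called in few cases at this depth.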
